A study of Mus musculus with 18 samples.

Results

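Rbpj and L3mbtl3 are the genes of the 2 partner proteins that were manipulated in a mouse T cell line, and they are described here in all 18 libraries of the study. They were chosen by name, as the rows Rbpj and L3mbtl3 of each of the 2 deposited expression tables, so they are 2 of 24391 genes. Total RNA depleted of ribosomal RNA was sequenced from E2-10HA, a hybridoma line that the labels describe as mature mouse T cells. The rescue experiment used RBPJ-depleted cells given a blasticidin-selected retroviral plasmid (pMY-Bio) that carried Flag-tagged mouse RBPJ F261A/A284V, Flag-tagged mouse RBPJ WT or no insert (empty vector), with 4 libraries each, so all 3 groups share the depletion. In the knockdown experiment, cells carried a puromycin-selected lentiviral plasmid (pLKO.1) with a hairpin against L3MBTL3 or with a scramble hairpin, with 3 libraries each. A single hairpin and a single cell line were used. Nothing in the labels tells whether the replicates of a group were grown or infected separately, and the p-values therefore speak only of the spread among these libraries, which may be technical.

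RBPJ (also CSL or CBF1) is the DNA-binding protein of the Notch pathway. When a Notch receptor is cleaved, its intracellular domain binds RBPJ, recruits a Mastermind-like protein and switches target genes on. Without Notch, RBPJ can hold the same genes down through corepressors such as SPEN and FHL1. L3MBTL3 has MBT domains, which bind methylated lysines, and is described as a partner of RBPJ that brings the lysine demethylase KDM1A to Notch target genes. F261 and A284 lie in the beta-trefoil domain of RBPJ, the part that Notch and several corepressors contact. The tables thus hold 2 checks of the manipulations, the level of Rbpj after rescue and the level of L3mbtl3 under its hairpin, and 2 cross comparisons, L3mbtl3 as a function of the form of RBPJ and Rbpj under the L3MBTL3 hairpin.

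The sequence around the substituted residues is shown because it is what separates the 2 rescue proteins. It was read from the GENCODE M21 transcripts (GRCm38, chromosome 5, plus strand). Of 6 coding Rbpj transcripts, 1 has the original residues of F261A and A284V at the labelled positions, counted from 1 at the first residue of the protein: Rbpj-201, which codes for 526 residues. Codons 257 to 288 of Rbpj-201 are printed 5′ to 3′, with the codons of the 2 substituted residues in capitals.
Rbpj-201 codons 257-288: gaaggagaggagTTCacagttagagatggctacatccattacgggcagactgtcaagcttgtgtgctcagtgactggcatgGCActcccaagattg
The deposited values are sums per gene, so transcript from the endogenous Rbpj locus and transcript from the plasmid were counted together and cannot be told apart here.

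Promoters of both genes are shown because the level of L3mbtl3 was compared between forms of RBPJ, which binds DNA at TGGGAA. Windows of 250 bases before to 50 bases after the start site were taken from RefSeq (GRCm38.p6), each printed on the strand of its gene with TGGGAA, or its reverse complement TTCCCA, in capitals.
Rbpj, chr5:53590096-53590395, plus strand: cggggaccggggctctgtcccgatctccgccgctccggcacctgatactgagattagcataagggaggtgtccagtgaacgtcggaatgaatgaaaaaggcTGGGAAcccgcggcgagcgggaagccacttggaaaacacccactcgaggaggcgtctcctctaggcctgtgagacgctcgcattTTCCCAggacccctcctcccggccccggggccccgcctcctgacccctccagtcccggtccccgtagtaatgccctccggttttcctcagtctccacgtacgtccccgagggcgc
L3mbtl3, chr10:26375170-26375469, minus strand: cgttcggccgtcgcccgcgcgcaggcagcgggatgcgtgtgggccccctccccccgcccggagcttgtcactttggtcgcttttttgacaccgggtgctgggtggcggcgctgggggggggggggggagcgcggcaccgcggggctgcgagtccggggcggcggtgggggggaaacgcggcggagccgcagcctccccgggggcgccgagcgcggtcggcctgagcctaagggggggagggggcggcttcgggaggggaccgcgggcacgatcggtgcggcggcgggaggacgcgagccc
The Rbpj window held 2 matches of TGGGAA on either strand, which begin at -149 and -65 from the start site, and the L3mbtl3 window held 0. Of 32851 promoter windows of this length in the reference table, 25.6% held at least 1 match on either strand and 3.79% held 2 or more. The longer form GTGGGAA, in 6.38% of windows, was in neither. A second annotated L3mbtl3 promoter, chr10:26374023-26374322 on the minus strand, also held 0 matches of TGGGAA, and a second Rbpj promoter, whose window overlaps the one printed, held 1. A match describes letters, not binding, and these windows say nothing of sites elsewhere in either gene.

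Values are normalized read counts, each the reads of a gene divided by a size factor of its library, and whole reads could be recovered from them. Each knockdown library held 4882485 to 6129134 recovered reads. In the rescue, replicates 1 and 2 formed one set, with 5923799 to 7921533 reads, and replicates 3 and 4 another, with 3553505 to 4239479. The sets stood apart from each other in all 3 groups, so values within each set are given beside the pooled ones. Differences smaller than sampling noise were found between RBPJ F261A/A284V replicates 3 and 4, between RBPJ WT replicates 1 and 2 and between empty vector replicates 1 and 2. The libraries of such a pair were averaged to 1 sample, which leaves n = 3 per group in means ± SD. The averaged pair comes from replicates 3 and 4 with RBPJ F261A/A284V, but from replicates 1 and 2 in the other groups. Rescue means ± SD, and shares taken from them, therefore weigh the sets differently between groups. Fits to merged libraries without a term for the sets do the same, whereas fits to all libraries do not. Of 10 T cell markers, 9 averaged over 50 in every group, with sums of 3870 to 5279 per library. Summed markers of B cells (0 to 3.69), myeloid cells (4.68 to 34.1) and stroma (0 to 2.46) were low in every group.

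Rbpj was lowest in empty vector cells and was higher with both RBPJ plasmids, at similar levels. With RBPJ F261A/A284V, Rbpj had 729, 685, 922 and 919 normalized reads in replicates 1 to 4. With RBPJ WT it had 644, 627, 802 and 818 normalized reads. In empty vector cells it had 317, 317, 255 and 272 normalized reads. Every library with a plasmid-borne RBPJ was thus above every empty vector library, while the 2 forms overlapped. As means, Rbpj stood at 778 ± 125 with RBPJ F261A/A284V, at 752 ± 101 with RBPJ WT and at 281 ± 32.1 in empty vector cells (SD, n = 3 each). The fewest reads behind any of these values were 178, in empty vector replicate 4, for which counting alone gives an error of 7.495%.

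**Figure D1:**
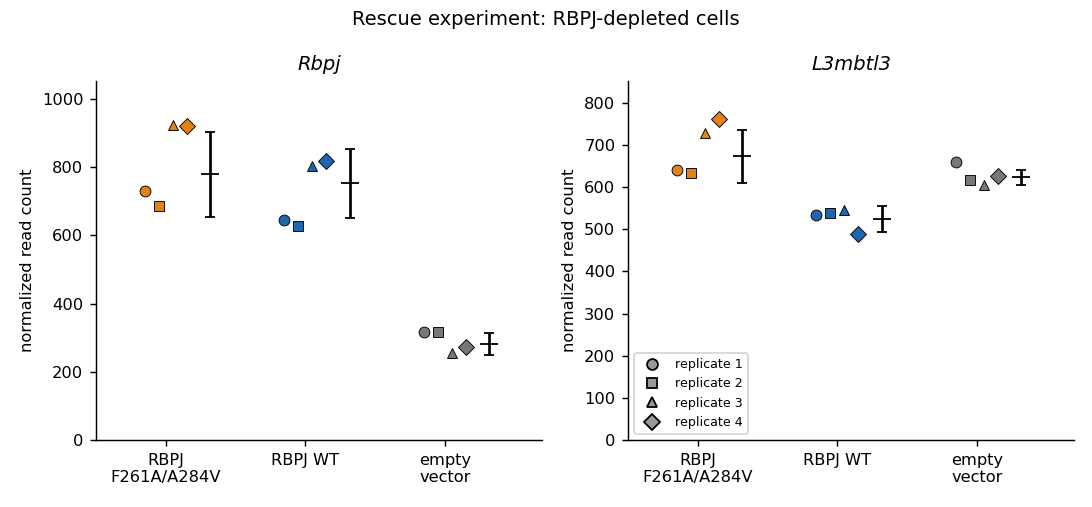
Normalized read counts of Rbpj (left) and L3mbtl3 (right) in each rescue library, by group; symbols mark the replicate number and bars show the mean ± SD over 3 samples, near-identical libraries averaged first. Rbpj in empty vector cells, at 255 to 317, lies below all libraries with either RBPJ form, and L3mbtl3 with RBPJ WT, at 489 to 546, lies below all libraries of the other groups.

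The gain in Rbpj passed the test with either plasmid. Rbpj was 2.79-fold higher with RBPJ F261A/A284V than with empty vector (log2 fold change 1.48, SE 0.13, 95% interval of the fold 2.29 to 3.39, limma adjusted p = 0.00114), and it ranked 1 of 11691 genes by p. That comparison called 2 genes in all, 0.0171% of those tested, as did edgeR on the recovered reads, while DESeq2 called 0.0599% and the replicate block 0.65%. With RBPJ WT, Rbpj was 2.48-fold higher than with empty vector (log2 fold change 1.31, SE 0.13, interval 2.04 to 3.01, limma adjusted p = 0.000475) and ranked 8, among 29 called genes, 0.248% of those tested (edgeR 0.24%, DESeq2 0.513%). Libraries with either form did not overlap the empty vector libraries, a separation seen in 1.92% of genes with RBPJ F261A/A284V and in 3.34% with RBPJ WT. An exact 2-sided permutation test gave p = 0.02857 for each, the smallest that 4 against 4 libraries allow. In every rescue comparison this permutation test counted near-identical libraries as separate samples. With 3 against 3 samples it cannot go below 0.1. With near-identical libraries merged, both calls held, at limma adjusted p = 0.043 for RBPJ F261A/A284V and 0.00704 for RBPJ WT.

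The 2 rescue transcripts were not distinguished by level. Rbpj with RBPJ F261A/A284V was 1.12-fold that with RBPJ WT (log2 fold change 0.17, SE 0.13, 95% interval of the fold 0.925 to 1.37, limma adjusted p = 1), so a difference of up to about 1.37-fold is within the interval. The mutant library was the higher one in 4 of 4 same-numbered pairs, and an exact permutation test that ignores the numbers gave p = 0.343. The limma fit with a replicate block gave an adjusted p of 0.314. In replicates 1 and 2 the mean was 707 with RBPJ F261A/A284V and 635 with RBPJ WT, and in replicates 3 and 4 it was 921 with RBPJ F261A/A284V and 810 with RBPJ WT.

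The size of the rescue differed between the replicate sets. Rbpj with RBPJ WT was 2.00 times its empty vector level in replicates 1 and 2 and 3.08 times in replicates 3 and 4. With RBPJ F261A/A284V it was 2.23 times the empty vector level in replicates 1 and 2 and 3.50 times in replicates 3 and 4. Both ends of the ratio moved, since empty vector libraries averaged 317 in replicates 1 and 2 and 263 in replicates 3 and 4, while those with either RBPJ form were higher in replicates 3 and 4. The test of the difference between the sets passed for RBPJ F261A/A284V (difference of 0.65 on the log2 scale, SE 0.08, limma adjusted p = 0.00289, in a test that called 0.128% of genes) and for RBPJ WT (0.62, SE 0.08, limma adjusted p = 0.00582, 0.0171% of genes). With near-identical libraries merged, neither passed (limma adjusted p = 0.542 for RBPJ F261A/A284V and 0.934 for RBPJ WT). Read depth moves with the sets, and its part in the result was not tested.

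L3mbtl3 had its lowest values in the rescue with RBPJ WT. It had 640, 633, 727 and 760 normalized reads in replicates 1 to 4 with RBPJ F261A/A284V. With RBPJ WT it had 534, 539, 546 and 489 normalized reads. In empty vector cells it had 660, 616, 604 and 627 normalized reads. The RBPJ WT libraries lay below all others, while RBPJ F261A/A284V and empty vector libraries overlapped. The means were 672 ± 61.7 with RBPJ F261A/A284V, 524 ± 30.6 with RBPJ WT and 623 ± 17.5 in empty vector cells (SD, n = 3 each), on 348 to 1007 reads per library.

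The largest of these differences was between the 2 forms of RBPJ, and its call depended on how the replicates were treated. L3mbtl3 was 1.31-fold as high with RBPJ F261A/A284V as with RBPJ WT (log2 fold change 0.38, SE 0.07, 95% interval of the fold 1.17 to 1.45). Its limma adjusted p was 0.0511, just short of the threshold of 0.05, at rank 38 where 37 genes were called, 0.316% of those tested. With the replicate number as a block, L3mbtl3 was called (limma adjusted p = 0.000252), as were 4.74% of all genes. Merging near-identical libraries gave an adjusted p of 0.562 without a term for the sets and 0.00336 with it. DESeq2 on the recovered reads gave 0.000679, with 0.667% of genes called, and edgeR 0.0622, with 0.248% called. Leaving out RBPJ F261A/A284V replicate 2 alone brought the limma adjusted p to 0.0449. The libraries did not overlap, a separation seen in 3.7% of genes, and the exact 2-sided permutation test gave p = 0.02857, the smallest possible for 4 against 4.

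Against empty vector, L3mbtl3 with RBPJ WT was 0.841-fold as high (log2 fold change -0.25, SE 0.07, 95% interval of the fold 0.756 to 0.937, limma adjusted p = 0.588). The replicate block brought the adjusted p to 0.0221, in a fit that called 2.23% of genes. The groups did not overlap, as for 3.34% of genes (exact permutation p = 0.02857, the smallest possible). It follows that the RBPJ WT library was the lower one in each of the 4 same-numbered pairs. The ratio was 0.841 in replicates 1 and 2 and 0.842 in replicates 3 and 4. The difference was of like size in both sets. Within replicates 3 and 4 alone it was not called (limma adjusted p = 0.101). Over all libraries its call rested on a term for the divide between the sets and on counting near-identical libraries separately. With near-identical libraries merged the adjusted p was 1 without that term and 0.0654 with it.

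With RBPJ F261A/A284V, L3mbtl3 was 1.10-fold its empty vector level, a difference that did not pass (log2 fold change 0.14, SE 0.07, 95% interval of the fold 0.986 to 1.22, limma adjusted p = 0.9999, 0.370 with the replicate block). The ratio was 0.998 in replicates 1 and 2 and 1.21 in replicates 3 and 4. The test of that difference between the sets did not pass (difference of 0.28 on the log2 scale, SE 0.09, limma adjusted p = 0.302). Nor did it for RBPJ F261A/A284V against RBPJ WT, where the ratio was 1.19 in replicates 1 and 2 and 1.44 in replicates 3 and 4 (limma adjusted p = 0.169, with 0.573% of genes called). Without RBPJ WT replicate 3 that difference passed (0.36 on the log2 scale, limma adjusted p = 0.0281), and it did not pass when any 1 of the other 7 libraries of these groups was left out. Both comparisons with empty vector use the same control libraries, and both comparisons with RBPJ WT share those libraries, so they are not independent of each other.

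**Figure D2:**
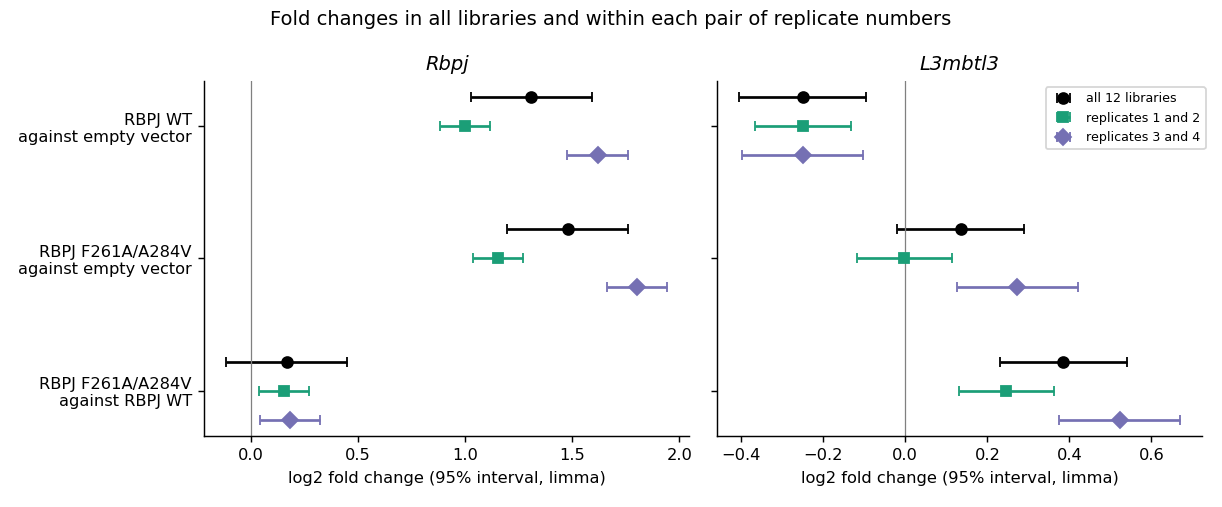
Log2 fold changes of Rbpj (left) and L3mbtl3 (right) in the 3 rescue comparisons, for all 12 libraries and within replicates 1 and 2 or 3 and 4; points are limma estimates on log2(value + 1) and bars their 95% intervals. Rbpj moved by 1.00 and 1.16 in replicates 1 and 2 and by 1.62 and 1.80 in replicates 3 and 4 in its comparisons with empty vector, whereas L3mbtl3 with RBPJ WT lay at -0.25 in both sets. All intervals count near-identical libraries as separate samples.

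The levels of the 2 genes can also be set against each other, as the ratio of Rbpj reads to L3mbtl3 reads within a library, which needs no scaling between libraries. The ratio averaged 1.15 ± 0.0794 with RBPJ F261A/A284V, 1.44 ± 0.245 with RBPJ WT and 0.451 ± 0.0405 in empty vector cells (SD, n = 3 each). Both RBPJ forms thus lay above every empty vector library, which reached 0.514. Among the other libraries the ratio spanned 1.08 to 1.27 with RBPJ F261A/A284V and 1.16 to 1.67 with RBPJ WT, and those ranges overlap.

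The hairpin against L3MBTL3 left most of the L3mbtl3 signal in place. L3mbtl3 had 394, 371 and 370 normalized reads in replicates 1 to 3 with the L3MBTL3 hairpin. With the scramble hairpin it had 467, 447 and 352 normalized reads. The groups overlapped, because scramble replicate 3 was the lowest library of all 6. That library also stood apart over all genes and had the fewest recovered reads of the knockdown, 4882485. Its chi-square per degree of freedom over genes was 6.22 against scramble replicate 1 and 6.38 against replicate 2. Scramble replicates 1 and 2 gave 1.42 against each other, and pairs with the L3MBTL3 hairpin gave 1.25 to 2.68. The means were 378 ± 13.8 with the L3MBTL3 hairpin and 422 ± 61.8 with scramble (SD, n = 3 each).

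L3mbtl3 with its hairpin was at 90.3% of its scramble level (log2 fold change -0.15, SE 0.11, limma adjusted p = 0.402), with a 95% interval of 76.2% to 106.9%. The replicate block gave an adjusted p of 0.203 and an interval of 80.1% to 101.8%, and an exact permutation test gave p = 0.4, where 3 against 3 libraries cannot go below 0.1. The result depended on scramble replicate 3. Without it, L3mbtl3 was 0.827-fold its scramble level (log2 fold change -0.27, 95% interval of the fold 0.756 to 0.905, limma adjusted p = 0.0272). In 5 of 6 fits that each left out 1 library the difference did not pass. The level of L3mbtl3 transcript therefore does not by itself check the label of the hairpin libraries. Transcript can stay while protein falls, and protein was not measured in these tables.

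Rbpj under the L3MBTL3 hairpin was not called, and its libraries overlapped those with scramble. It had 1493, 1620 and 1714 normalized reads in replicates 1 to 3 with the L3MBTL3 hairpin. With the scramble hairpin it had 1743, 1613 and 2160 normalized reads. Scramble replicate 3 was again at an extreme, here the highest of the 6. Rbpj was at 88.1% of its scramble level (log2 fold change -0.18, SE 0.11, 95% interval 74.3% to 104.4%, limma adjusted p = 0.312), and an exact permutation test gave p = 0.3. The replicate block gave an adjusted p of 0.0613 and an interval of 79.9% to 97.1%, which lies below 100%. Leaving out 1 library moved the log2 fold change of Rbpj between -0.27, without scramble replicate 2, and -0.0617, without scramble replicate 3, and none of the 6 such fits called it (limma adjusted p = 0.172 to 0.639).

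In this comparison 385 genes were called, 3.32% of those tested, and 0 of the 2 genes described here were among them, with limma as with edgeR (4.07% of genes called) and DESeq2 (5.77%), and 0 at an unadjusted p under 0.05. The fit with the replicate block called 22.2% of genes and neither of the 2. Among all genes tested, 35.2% had groups that did not overlap here, whereas both Rbpj and L3mbtl3 overlapped.

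**Figure D3:**
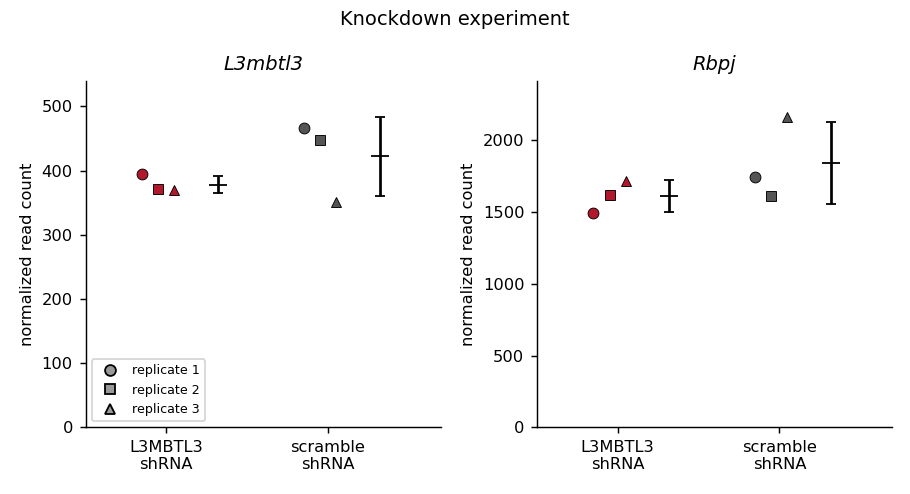
Normalized read counts of L3mbtl3 (left) and Rbpj (right) in the 3 libraries with the L3MBTL3 hairpin and the 3 with the scramble hairpin; symbols mark the replicate number and bars show the mean ± SD (n = 3). Scramble replicate 3 is the lowest library for L3mbtl3, at 352, and the highest for Rbpj, at 2160.

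How low Rbpj transcript was in the RBPJ-depleted cells can be seen only across the 2 experiments, since the rescue has no undepleted group. RBPJ protein was not measured in these tables, so its depletion cannot be read from these values. Values are given side by side as RPM (recovered reads scaled to the same total in every library), without a test, because the experiments were normalized apart and differ in vector and selection. Rbpj averaged 148 ± 17.97 RPM with RBPJ F261A/A284V, 141 ± 13.3 with RBPJ WT and 53.1 ± 8.67 in empty vector cells, against 315 ± 40.1 in scramble cells of the knockdown experiment (SD, n = 3 each). Empty vector cells thus held 16.8% of the scramble level of Rbpj, cells with RBPJ WT 44.7% and those with RBPJ F261A/A284V 46.9%. These shares count reads, and Rbpj-201 has 5459 bases, of which 1578 are coding. No plasmid sequence was at hand. If the inserts held coding bases only, each plasmid transcript would give fewer reads than an endogenous one. The shares with a plasmid would then understate its molecules. The order of the mean RPM was scramble above both RBPJ forms above empty vector, and libraries of the 2 forms overlapped. How many other genes differ as much between the experiments was not counted.

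L3mbtl3 ran the other way between the experiments. It averaged 128 ± 7.48 RPM with RBPJ F261A/A284V, 98.7 ± 8.89 with RBPJ WT and 117 ± 8.41 in empty vector cells, against 72.7 ± 12.4 in scramble cells (SD, n = 3 each). That is 175.7% of the scramble level with RBPJ F261A/A284V, 135.7% with RBPJ WT and 161.2% with empty vector. With 1 set of size factors over all 18 libraries, the empty vector cells were at 16.4% of scramble for Rbpj and at 157.5% for L3mbtl3, so the choice of scaling moved these shares little. Depletion of RBPJ and the experiment itself cannot be told apart in this contrast.

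**Figure D4:**
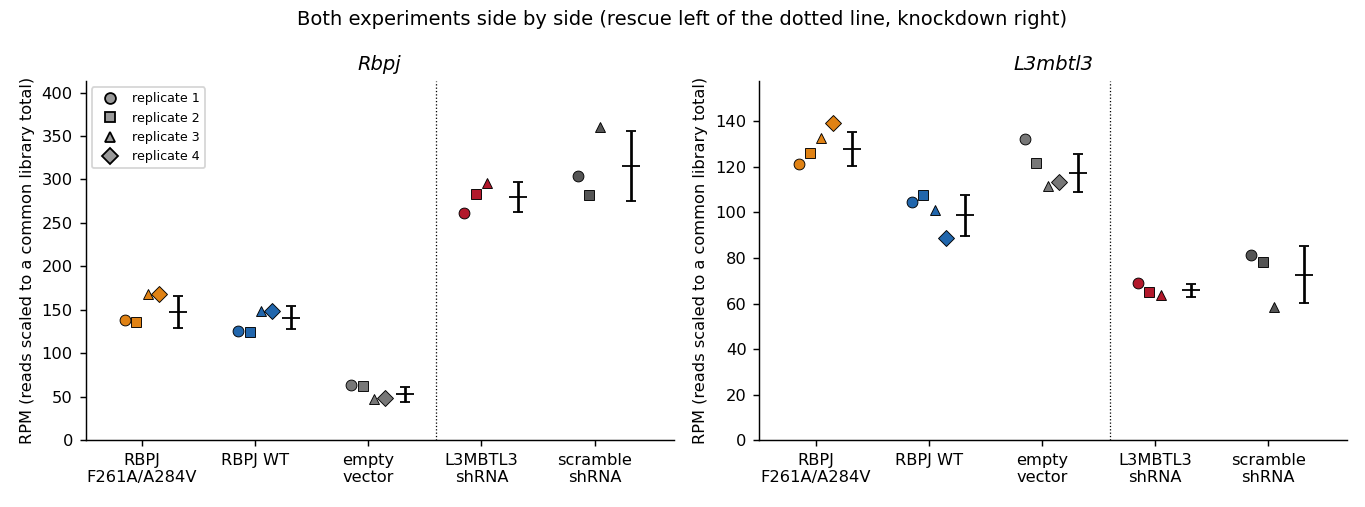
RPM, recovered reads scaled to a common total, of Rbpj (left) and L3mbtl3 (right) in all 18 libraries, rescue groups left of the dotted line and knockdown groups right of it; symbols mark the replicate number and bars the mean ± SD over 3 samples. Rbpj in empty vector cells averages 53.1 against 315 in scramble cells, and L3mbtl3 averages 117 against 72.7.

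The order of the 2 genes within a library also differed between the experiments when reads were set against gene length. Per kilobase of annotated exon (GENCODE M21, 12750 bases for Rbpj and 9713 for L3mbtl3), Rbpj had 14.0 to 38.0 reads in empty vector libraries and L3mbtl3 42.2 to 104. In scramble libraries Rbpj had 132 to 146 reads per kilobase and L3mbtl3 29.4 to 51.4. By the same measure, Rbpj was above 17.8% to 19.8% of genes in empty vector libraries and above 64.5% to 74.8% in scramble libraries. The genes compared were those tested that had an annotated exon length, so genes with few or no reads were left out. The exon lengths come from another build than the counts and include exons of rare transcripts, so the levels per kilobase are approximate.

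Near-identical copies could take reads from either gene. The Rbpj pseudogenes have no row in the tables, so reads that match both could not be traced. Rbpjl, the paralog of Rbpj that does not bind Notch, was at or below 2.05 normalized reads in every library. The nearest relatives of L3mbtl3 differed in level: L3mbtl1 stayed at or below 2.94 and L3mbtl4 at or below 0.958, while L3mbtl2, which belongs to a Polycomb complex, had 573 to 706. L3mbtl2 averaged 627 ± 11.0 with RBPJ F261A/A284V, 692 ± 15.3 with RBPJ WT and 692 ± 13.0 in empty vector cells (SD, n = 3 each), a difference between the forms that did not pass (log2 fold change -0.14, limma adjusted p = 0.672).

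Of 12 genes listed for MBT domains, some of which lack such a domain, 9 were tested in the knockdown and 1 passed, lower. That comparison called 3.32% of all genes tested. Mbtd1, part of the NuA4 acetyltransferase complex, averaged 466 ± 28.1 with the L3MBTL3 hairpin and 615 ± 2.23 with scramble (SD, n = 3 each; log2 fold change -0.40, SE 0.06, limma adjusted p = 0.0318). With the replicate block Sfmbt1, a repressor with MBT repeats, was also called, higher, at 460 ± 25.8 with the L3MBTL3 hairpin and 359 ± 34.6 with scramble (limma adjusted p = 0.0037, 0.0581 without the block). The block called 22.2% of all genes tested there. In the rescue 10 were tested and none passed with limma, edgeR or DESeq2 in any comparison, with at most 1 at an unadjusted p under 0.05. The replicate block called Sfmbt1, higher with RBPJ F261A/A284V than with RBPJ WT (limma adjusted p = 0.0315), in a fit that called 4.74% of all genes.

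The neighbours of each gene were looked up for transcripts that could overlap it. The nearest tested genes, Smim20 and Tbc1d19 beside Rbpj and Akap7 and Arhgap18 beside L3mbtl3, do not overlap them in the RefSeq annotation. Akap7, which anchors protein kinase A and lies 17 annotated genes from L3mbtl3, was higher with the L3MBTL3 hairpin (195 ± 23.7, against 118 ± 20.4 with scramble, SD, n = 3 each; log2 fold change 0.72, SE 0.16, limma adjusted p = 0.0492). None of the other neighbours passed in any comparison, with or without the replicate block.

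Of 22 listed genes for corepressors of RBPJ, 18 were tested and 1 passed in the rescue. Of all genes tested, 0.316% passed between the forms and 0.248% for RBPJ WT against empty vector. Spen, which encodes the large scaffold that brings histone deacetylases to RBPJ, was lower with RBPJ WT than with empty vector and higher with RBPJ F261A/A284V than with RBPJ WT. Spen averaged 1333 ± 88.8 with RBPJ F261A/A284V, 976 ± 46.3 with RBPJ WT and 1330 ± 22.9 in empty vector cells (SD, n = 3 each). The log2 fold change of Spen was 0.41 (SE 0.06, limma adjusted p = 0.0122) between the forms and -0.44 (SE 0.06, limma adjusted p = 0.00768) for RBPJ WT against empty vector. Spen, like L3mbtl3, was lowest with RBPJ WT. The corepressor genes Ncor1 and Ctbp1 did not pass in any comparison. Ncor1 averaged 3220 ± 204.3 with RBPJ F261A/A284V, 3467 ± 438 with RBPJ WT and 3256 ± 369 with empty vector. Over all rescue libraries the log2 fold change of Ncor1 for RBPJ F261A/A284V against empty vector was 0.06, opposite in direction to these means. Median log2 fold changes of the tested corepressor genes were 0.04 between the forms and -0.03 for RBPJ WT against empty vector, beside 0.01 and -0.01 over all genes tested.

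In the knockdown none of the 18 corepressor genes passed with limma, edgeR or DESeq2, with 2 at an unadjusted p under 0.05, where 25.5% of all genes tested were. The replicate block called 1, Cir1, lower (log2 fold change -0.38, limma adjusted p = 0.0351), in a fit that called 22.2% of all genes. Of 15 listed genes for Notch receptors and coactivators, 13 were tested and 2 passed in the knockdown, both higher, where 3.32% of all genes passed. Notch2, a receptor, averaged 3071 ± 97.2 with the L3MBTL3 hairpin and 2327 ± 111 with scramble (SD, n = 3 each; log2 fold change 0.40, SE 0.06, limma adjusted p = 0.0328). Maml3, a Mastermind-like coactivator, averaged 548 ± 70.1 with the L3MBTL3 hairpin and 360 ± 32.5 with scramble (log2 fold change 0.60, SE 0.11, limma adjusted p = 0.0348). In the same replicate block fit Notch1 was also called higher and Kmt2a lower.

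In the rescue none of the 13 receptor and coactivator genes passed with limma or edgeR, with 2 at an unadjusted p under 0.05 in each comparison with RBPJ WT and 0 for RBPJ F261A/A284V against empty vector. Over all genes tested that share was 4.62% between the forms, 3.4% for RBPJ WT against empty vector and 2.05% for RBPJ F261A/A284V against empty vector. DESeq2 called 1, Notch1, in each comparison with RBPJ WT. It called 0.667% of all genes between the forms and 0.513% for RBPJ WT against empty vector. Notch1, the receptor that is also a target of its own pathway, averaged 148 ± 51.9 with RBPJ F261A/A284V, 46.5 ± 21.9 with RBPJ WT and 137.5 ± 35.0 in empty vector cells (SD, n = 3 each). With the replicate block Notch1 was called lower with RBPJ WT than with empty vector (limma adjusted p = 3.09e-07), and both Notch1 (1.09e-06) and Maml3 (0.00832) were called higher with RBPJ F261A/A284V than with RBPJ WT. The block called 2.23% of all genes in the first of these comparisons and 4.74% in the other.

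Of 20 listed Notch target genes, 13 were tested in the rescue, and 1 passed with limma, Lgmn, which encodes the protease legumain, in both comparisons with RBPJ WT. The share of all genes that passed was 0.316% between the forms and 0.248% for RBPJ WT against empty vector. DESeq2 called 3 targets between the forms, Hes1, Notch1 and Lgmn, where it called 0.667% of all genes. For RBPJ WT against empty vector it called 3, Notch1, Jag1 and Lgmn, and 0.513% of all genes. Lgmn averaged 381 ± 22.6 with RBPJ F261A/A284V, 81.5 ± 20.4 with RBPJ WT and 392 ± 17.9 in empty vector cells (SD, n = 3 each; log2 fold change 2.18 between the forms, SE 0.14, limma adjusted p = 1.34e-05). With the replicate block, which called 2.23% of all genes for RBPJ WT against empty vector and 4.74% between the forms, 5 were called lower with RBPJ WT than with empty vector and higher with RBPJ F261A/A284V than with RBPJ WT, Hes1, Hey1, Notch1, Jag1 and Lgmn. Hes1, a transcriptional repressor, averaged 328 ± 93.0 with RBPJ F261A/A284V, 193 ± 40.3 with RBPJ WT and 289 ± 46.2 in empty vector cells (log2 fold change 0.96 between the forms, limma adjusted p = 0.119, 3.53e-09 with the block). The median log2 fold change of the tested targets was 0.30 between the forms and -0.46 for RBPJ WT against empty vector, and the median over all genes tested was 0.01 and -0.01. The list includes genes known to respond in these libraries, so its direction is not independent evidence.

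For RBPJ F261A/A284V against empty vector, none of the 13 targets passed with limma, edgeR or DESeq2, and 0 were at an unadjusted p under 0.05. The replicate block called Hes1, higher (limma adjusted p = 0.0135), and 0.65% of all genes. In the knockdown 11 targets were tested and Lgmn passed, at 26.5 ± 12.2 with the L3MBTL3 hairpin and 1.89 ± 1.64 with scramble (SD, n = 3 each; log2 fold change 3.36, SE 0.62, limma adjusted p = 0.0379). That comparison called 3.32% of all genes tested. Lgmn with scramble rested on few reads. At an unadjusted p under 0.05 were 7 of the 11 targets, where 25.5% of all genes tested were. The replicate block called 6 higher and 2 lower, in a fit that called 22.2% of all genes, and the list includes genes known to respond in these libraries.

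The genes whose profile over the 12 rescue libraries was most like each of the 2 were ranked by Pearson's r of log2(value + 1), after the mean of replicates 1 and 2 and that of replicates 3 and 4 had been taken off. The libraries share groups and 3 near-identical pairs, so r is a description over 9430 genes. For L3mbtl3 the 5 highest were Ifih1 (r = 0.947), a sensor of double-stranded RNA, Tcn2 (0.946), which carries vitamin B12, Ncald (0.938), a calcium-binding protein, Lpcat1 (0.935), which remodels phospholipids, and Hes1 (0.933). All 5 were lowest with RBPJ WT, a pattern that follows largely from their choice by likeness to L3mbtl3. Ncald averaged 146 with RBPJ F261A/A284V, 49.8 with RBPJ WT and 103 in empty vector cells, a wider span than that of L3mbtl3. Without taking off the means of the sets, 0 of these 5 remained among the first 5, which were then Maml3, Neurl3, Dlg3, Gimap8 and Osgin1.

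For Rbpj the 5 highest were Ccr4 (r = 0.95), a chemokine receptor, Msi2 (0.944), an RNA-binding protein, Antxr2 (0.939), an anthrax toxin receptor, Itsn2 (0.939), an endocytic scaffold, and Ikzf3 (0.935), a lymphoid transcription factor. All 5 were higher with either RBPJ form than with empty vector, by far less than Rbpj. Their direction follows largely from their choice by likeness to Rbpj. Ccr4 averaged 260 with RBPJ F261A/A284V, 274 with RBPJ WT and 184 in empty vector cells. Over all rescue libraries the log2 fold change of Ccr4 for RBPJ F261A/A284V against RBPJ WT was 0.0911, opposite in direction to these means. The log2 fold changes of the other 4 genes against empty vector were between 0.11 and 0.22. Without the set means taken off, 2 of the 5 remained among the first 5, Ikzf3 and Antxr2.

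**Figure D5:**
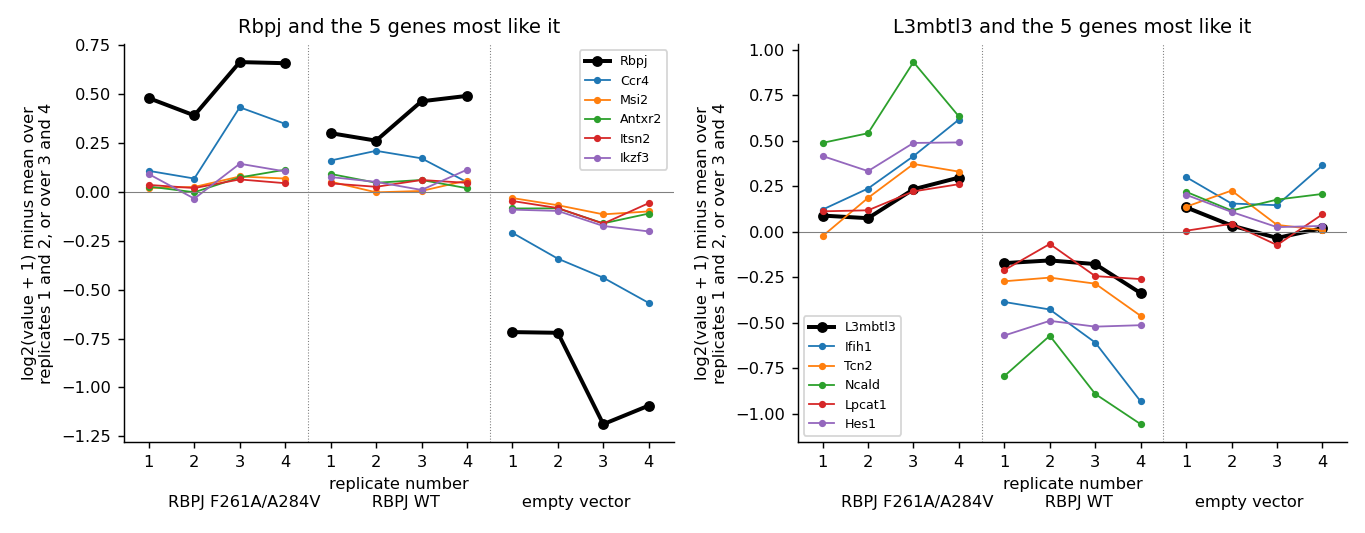
Log2(value + 1) of Rbpj (left) and L3mbtl3 (right) and of the 5 genes most like each, in the 12 rescue libraries by group and replicate number, minus the mean of replicates 1 and 2 or of replicates 3 and 4; lines join points of a gene within a group and carry no order of replicates. Rbpj and its 5 genes are below 0 in all empty vector libraries, and L3mbtl3 and its 5 genes are below 0 in all RBPJ WT libraries. The genes were chosen by likeness in these same libraries.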

How the data were processed

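Expression was measured in 18 libraries, 12 of the rescue and 6 of the knockdown, in 5 groups taken from the sample labels. The submitters' processing notes name TopHat2 2.1.1, DESeq2 1.24.0 and build mm9; the counter, the annotation, the strand setting and duplicate removal are not stated in the labels or notes. The deposited values are a signal that behaves as gene counts the authors divided by 1 size factor per library: 100% of values were whole reads within 0.1 read. The gene with the most reads took 0.102% to 0.153% of a library.

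Genes with a value of at least 10 in at least 3 (knockdown, 11586 genes) or 4 (rescue, 11691 genes) libraries entered a 2-sided limma-trend fit (limma 3.58.1, R 4.3.3) of log2(value + 1) on group, with 1 fit for the rescue. Fold changes on that scale understate those of low genes. The call threshold was an adjusted p of 0.05 (Benjamini-Hochberg, over every gene tested in the comparison), from limma unless edgeR (4.0.16) or DESeq2 (1.42.0), run on recovered reads, is named. All 12 rescue libraries entered the tests, near-identical pairs included. The fits were tested on simulated data.

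Same-numbered libraries of different groups deviated together from their group means (r = 0.55 to 0.815 in the rescue, 0.24 to 0.539 in the knockdown). The replicate block, a term for these numbers, is therefore given where it changes a call. In the rescue, libraries of the same set correlated at 0.559 to 0.832 whatever their number, so the numbers show nothing beyond the divide of replicates 1 and 2 against 3 and 4. Between the knockdown groups, replicates 1 and 2 correlated at 0.394 and 0.24 when same-numbered. They correlated at 0.104 and 0.332 when numbered differently. Replicate 3 correlated at -0.469 to -0.223 with replicates 1 and 2 of the other group. The knockdown numbers thus set replicate 3 apart but show no clear pairing of replicates 1 and 2.

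Named genes are the 2 genes, list members that passed, up to 4 others per list in list order, L3mbtl and Rbpj relatives, nearest tested neighbours and the 5 genes most alike (mean of at least 50). The genes and lists were chosen with earlier results of these data known. Alternatives were other pseudocounts (0.5 and 10), no filter, quantile normalization, a term for the sets, merged libraries, each set alone, edgeR, DESeq2 and leaving out each library. Errors given for reads cover counting error only.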

Additional observations from a re-analysis of the deposited data

Results flagged for a closer look

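The gain of Rbpj over empty vector differed between replicates 3 and 4 and replicates 1 and 2, by a test of the difference itself. With RBPJ F261A/A284V the difference was 0.6477 on the log2 scale (limma adjusted p = 0.00289). With RBPJ WT it was 0.6179 (limma adjusted p = 0.00582). The gain was upward in every set and with either form, and both comparisons use the same empty vector libraries. With near-identical libraries merged neither difference passed.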

How the results depend on the processing

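Rbpj against empty vector kept its direction and call under every alternative run, and Rbpj stayed uncalled in the knockdown and between the forms. L3mbtl3 did not keep its side of the threshold. For RBPJ F261A/A284V against RBPJ WT its log2 fold change was called with the replicate block (0.38), a term for the sets (0.38), within replicates 1 and 2 (0.25), within replicates 3 and 4 (0.52), with merged libraries and the term (0.37) and with DESeq2 (0.38), and it ranged from 0.34 to 0.42 with 1 library left out. For RBPJ WT against empty vector it was called with the block (-0.25), the term (-0.25) and within replicates 1 and 2 (-0.25). Fits within a set counted near-identical libraries as separate samples. Within replicates 1 and 2, RBPJ WT and empty vector each rest on 1 near-identical pair, as does RBPJ F261A/A284V within replicates 3 and 4. For RBPJ F261A/A284V against empty vector it was -0.0024 within replicates 1 and 2. In the knockdown it ranged from -0.27 to -0.0691 with 1 library left out.

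As a share of genes tested, 3.32% were called in the knockdown, and 22.2% with the replicate block, 7.85% with quantile normalization, 5.77% with DESeq2 and 0% to 8.88% with 1 library left out. For RBPJ F261A/A284V against empty vector the share was 0.0171%, and 0.65% with the block, 0.693% with the set term, 0.128% within replicates 1 and 2, 1.15% within replicates 3 and 4, 0.00855% with merged libraries, 0.0941% with those and the term, 0.0313% without a filter and 0.0599% with DESeq2. For RBPJ WT against empty vector it was 0.248%, and 2.23%, 2.42%, 1.00%, 1.26%, 0.111% and 1.52% under the same first 6 settings, 0.513% with DESeq2 and 0.145% to 0.18% with 1 library left out. Between the forms it was 0.316%, and 4.74%, 5.12%, 1.63%, 7.05%, 0.103% and 1.96% under those 6 settings, 0.667% with DESeq2 and 0.171% to 0.316% with 1 library left out.

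The difference between the sets in the Rbpj gain with RBPJ WT lost its call with merged libraries (0.62), without a filter (0.62), with DESeq2 (0.62) and with some libraries left out (0.57 to 0.67 over all), and that with RBPJ F261A/A284V with merged libraries (0.65). For L3mbtl3 with RBPJ WT against empty vector the set difference was near 0 and changed sign (0.0536 with quantile normalization, 0.00197 with edgeR, 0.00408 with DESeq2, -0.0809 to 0.0786 with 1 library left out). Between the forms, leaving out 1 library gave set differences of -0.0144 to 0.0740 for Rbpj and 0.20 to 0.36 for L3mbtl3, which passed without RBPJ WT replicate 3. The cause was not tested. Depth limits the values of Rbpj in empty vector cells most, which rest on 178 to 484 reads.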
